A study of Mus musculus with 28 samples.

Results

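The genes described here are those that mouse mitochondrial DNA encodes itself. They were chosen by name, as the rows of the expression table whose symbol starts with mt-, which gave 37 of 53564 gene rows: 13 genes for proteins, 2 for ribosomal RNAs (rRNAs) and 22 for transfer RNAs (tRNAs). RNA was sequenced from C57BL6 mouse cells, in 8 groups of 2 libraries that follow the formation of primordial germ cells (PGCs, the precursors of eggs and sperm) and their first step towards meiosis. The stem cells were LT (wild type), ST (Terc knockout of generation 4, which lacks the RNA template of telomerase) or RT (Terc rescued). At the 1dEB stage, cells kept for 2 days as epiblast-like cells had spent 1 day in a medium that induces PGC-like cells, which held BMP4, SCF, EGF and LIF. At the 1dMeioLC stage, PGC-like cells after 4 days of that induction had been aggregated for 1 day with gonadal somatic cells of female E12.5 Actin-GFP mice in 3 µM retinoic acid, after which the cells without GFP were collected by sorting. PGCs sorted from E10.5 embryos with antibodies to CD61 and SSEA1 made up the group E10.5PGC, and such PGCs after the same aggregation and culture the group PGC-1dMeioLC. The sources used here do not say whether a genotype was represented by more than 1 stem cell line or whether its libraries came from separate cultures, so p-values measure the spread between these libraries, which may be technical.

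Values are TPM (transcripts per 1000000, a level scaled by gene length and by the total of a library). The 2 libraries of a group correlated at 0.978 to 0.989 on the log2 scale. Terc was listed at 0 in all 4 ST libraries and at 0.699 to 5.39 TPM in the LT and RT libraries, and it was also listed at 0 in both PGC-1dMeioLC libraries. The 7 PGC markers summed to 3389 to 3407 TPM in E10.5PGC, 412 to 609 TPM in LT-1dMeioLC and RT-1dMeioLC, 502 to 508 TPM in PGC-1dMeioLC and 97.9 to 100.4 TPM in ST-1dMeioLC. Of 6 fibroblast markers, 6 reached 1 TPM in ST-1dEB (summed level 265 to 276 TPM) and 4 in LT-1dEB (11.5 to 11.9 TPM), with 62.6 to 71.2 TPM in RT-1dEB. A pair of annotated genes on chromosome 17 with rRNA-like sequence, Gm42418 and AY036118, took 17.4% to 31.2% of all TPM in the 1dEB libraries and 0.656% to 7.14% elsewhere. In a mixture of cells, fewer cells of a type and less RNA per cell cannot be told apart.

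Mitochondrial DNA is a small circle whose genes lie close together on both strands. The nuclear-encoded RNA polymerase Polrmt, with Tfam and Tfb2m, copies each strand into long RNAs. These are cut, mostly at the tRNAs, into mRNAs, rRNAs and tRNAs. No tRNA lies between mt-Atp8 and mt-Atp6 or between mt-Nd4l and mt-Nd4, so cutting at tRNAs does not part these overlapping pairs. The level of each product depends on transcription and on how the product is processed and kept stable, in which the protein Lrpprc takes part. Some products, but not all, are also given a short poly(A) tail. The mRNAs encode core subunits of respiratory complexes I (mt-Nd1, mt-Nd2, mt-Nd3, mt-Nd4, mt-Nd4l, mt-Nd5, mt-Nd6), III (mt-Cytb) and IV (mt-Co1, mt-Co2, mt-Co3) and of ATP synthase (mt-Atp6, mt-Atp8), while mt-Rnr1 and mt-Rnr2 are the RNAs of the small and large mitochondrial ribosomal subunits.

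Sequence bears directly on what these levels measure, since part of the mitochondrial genome has a near-identical copy in the nucleus. In GENCODE M21 (GRCm38, the assembly also called mm10), 7 unprocessed pseudogenes on chromosome 1, all on the minus strand between 24611535 and 24616197, matched mitochondrial bases 6390 to 11042 in the same order and with the same spacing to within 1 base. Of the 7, 5 were identical to the mitochondrial gene over every aligned base, namely the copies of mt-Co2 (681 bases), mt-Atp6 (678), mt-Co3 (783), mt-Nd4l (294) and the first part of mt-Nd4 (876). The copies of mt-Nd3 and of the end of mt-Co1 had 1 mismatch each, in 345 and 483 bases. The mt-Nd4l gene (chromosome M, 9877 to 10173, plus strand) and its copy Gm10222 (chromosome 1, 24612407 to 24612700) are shown because a read from one fits the other over the whole of the copy. The capitals mark the last 3 bases of the gene, the stop codon, which the annotated copy does not include.
mt-Nd4l: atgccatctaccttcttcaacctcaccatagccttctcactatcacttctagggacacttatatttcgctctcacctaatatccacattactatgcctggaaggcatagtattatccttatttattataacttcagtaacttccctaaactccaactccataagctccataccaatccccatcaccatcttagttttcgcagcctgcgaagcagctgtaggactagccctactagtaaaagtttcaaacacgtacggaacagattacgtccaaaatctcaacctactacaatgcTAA
Gm10222: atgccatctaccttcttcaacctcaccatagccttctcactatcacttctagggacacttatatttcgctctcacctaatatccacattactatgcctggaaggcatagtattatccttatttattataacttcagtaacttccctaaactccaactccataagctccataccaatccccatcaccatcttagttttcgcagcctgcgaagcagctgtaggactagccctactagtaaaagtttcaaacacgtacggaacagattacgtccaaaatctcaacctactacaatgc
In contrast, the first 60 bases of mt-Nd3 (chromosome M, 9459 to 9806) and of its copy Gm28438 hold the 1 base, in capitals, at which their aligned bases differ. Counted from the first base of the gene, the change from gene to copy is T3C.
mt-Nd3: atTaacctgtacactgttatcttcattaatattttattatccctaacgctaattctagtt
Gm28438: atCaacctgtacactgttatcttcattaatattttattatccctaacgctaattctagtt
Apart from the parts of mt-Co1, mt-Nd4 and mt-Atp8 named here, the other mRNAs had no match of at least 99% identity among annotated transcripts. Below that cut, mt-Co1 matched Gm13340 at 97.6% over 1545 bases and mt-Nd2 matched Gm13339 at 96.7% over 510 bases. Gm13340 was at 0.837 to 70.1 TPM and Gm13339 at 3.26 to 155 TPM. The best matches of mt-Nd5 and mt-Nd6 were at 95.2% over 954 bases and 93.6% over 519 bases. For mt-Cytb (chromosome M, 14145 to 15288) the best match was Gm11410, at 92.9% identity, and bases 2 to 121 of both are shown to make that distance visible. Capitals mark 7 differences in 120 bases, which from gene to copy are G14A, C24T, C61T, T66C, C78T, T108C and G115A, counted from the first base of mt-Cytb.
mt-Cytb: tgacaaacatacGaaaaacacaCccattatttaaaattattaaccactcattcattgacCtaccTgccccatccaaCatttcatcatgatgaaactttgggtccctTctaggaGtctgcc
Gm11410: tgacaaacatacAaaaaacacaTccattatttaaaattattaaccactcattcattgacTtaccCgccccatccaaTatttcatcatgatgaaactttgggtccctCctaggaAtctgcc
The mitochondrial genes also overlap each other. The end of mt-Atp8 and the start of mt-Atp6 share 43 bases (chromosome M, 7927 to 7969), shown with the mt-Atp6 start codon in capitals.
shared by mt-Atp8 and mt-Atp6: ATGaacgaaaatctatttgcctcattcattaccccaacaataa
A further 7 bases belong to both mt-Nd4l and mt-Nd4, and 14 to mt-Nd5 and mt-Nd6, which lie on opposite strands. No source used here gives how reads that fit several genes were divided or whether counting used the strand. The levels of the genes within the stretch, of overlapping genes and of mt-Nd6 are therefore uncertain.

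The levels of the 13 mRNAs reached from 8.52 TPM (mt-Nd4l in 1 E10.5PGC library) to 36925 TPM (mt-Cytb in PGC-1dMeioLC). The plot of levels along the genome shows where the high and low genes lie. The 6 mRNAs wholly within the copied stretch (mt-Co2, mt-Atp8, mt-Atp6, mt-Co3, mt-Nd3 and mt-Nd4l) were at 8.52 to 514 TPM over all 16 libraries, and the other 7 at 640 to 36925 TPM, with no overlap. This split by position was made after the levels had been seen, and the part of the nuclear copies in it was not tested. The copies of the 5 such genes that have a copy of their own were themselves at 10.7 to 797 TPM. Of the copies of parts of other genes, Gm29216 (mt-Co1) was at 299 to 2098 TPM and Gm28439 (mt-Nd4) at 7.85 to 34.3 TPM. Apart from position, the order among the 7 high mRNAs differed by stage. In the 1dEB groups mt-Nd1 was highest, followed by mt-Cytb and mt-Co1, which overlapped in ST-1dEB. In the other 5 groups mt-Cytb was highest by a wide margin, followed by mt-Nd1 in both PGC groups and by mt-Co1 in the LT, ST and RT 1dMeioLC groups. The complex I subunit mt-Nd5 was lowest of the 7 in the means of all 8 groups, and mt-Nd2 and mt-Nd4 overlapped in E10.5PGC and LT-1dEB.

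**Figure D1:**
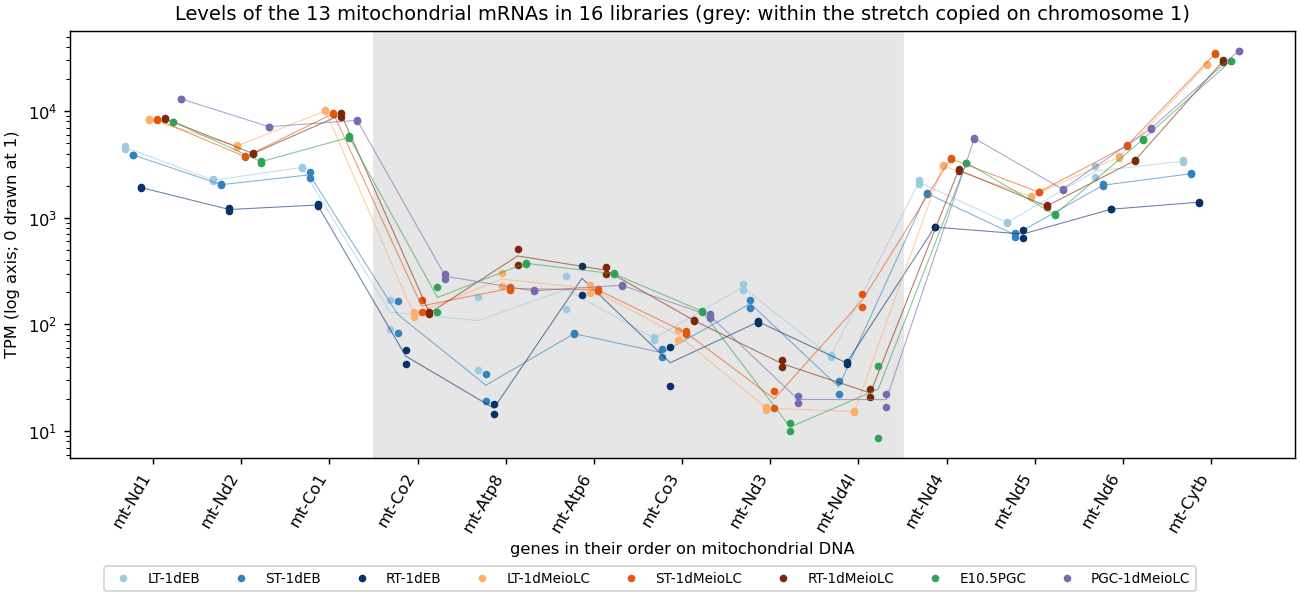
TPM (log axis) of the 13 mitochondrial mRNAs in their order on mitochondrial DNA, with a point for each of 16 libraries and lines through the means of the 8 groups. Genes on grey lie wholly within the stretch copied on chromosome 1 and sit at 8.52 to 514 TPM, below the other 7 genes in every library.

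The mRNAs together took 5.72% to 8.08% of all TPM in E10.5PGC and the 1dMeioLC groups and 0.892% to 1.99% in the 1dEB groups. The highest were the PGC-1dMeioLC libraries at 8.01% and 8.08%, then ST-1dMeioLC at 6.65% and 6.74%. LT-1dMeioLC at 6.04% and 5.89% and RT-1dMeioLC at 6.14% and 5.84% overlapped. Among the 1dEB groups, which did not overlap, LT had 1.99% and 1.96%, ST 1.62% and 1.56% and RT 0.925% and 0.892%. The 2 rRNAs had another order, with RT highest. They took 13.1% and 12.4% in RT-1dEB, 5.41% and 4.98% in LT-1dEB and 3.78% and 3.93% in ST-1dEB, against 0.394% to 2.04% elsewhere, with the lowest level in E10.5PGC. The ratio of summed rRNA to summed mRNA TPM was thus 14.0 ± 0.245 in RT-1dEB, 2.63 ± 0.127 in LT-1dEB and 2.43 ± 0.134 in ST-1dEB (SD, n = 2), and 0.0696 to 0.304 in the means of the other 5 groups. The chromosome 17 rRNA-like genes were also highest in RT-1dEB, at 31.2% and 28.9% of TPM, and higher in every 1dEB library than in any other. Their part was not tested, and the way rRNA was removed or mRNA selected before sequencing is not stated in any source used here. The tRNA genes had the same lowest and highest groups as the mRNAs, from 0.954% and 0.842% in RT-1dEB to 4.76% and 4.81% in PGC-1dMeioLC. Their order differed between these ends. ST-1dMeioLC, above LT-1dMeioLC for the mRNAs, was below it for the tRNAs, at 2.51% and 2.35% against 3.11% and 3.01%.

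**Figure D2:**
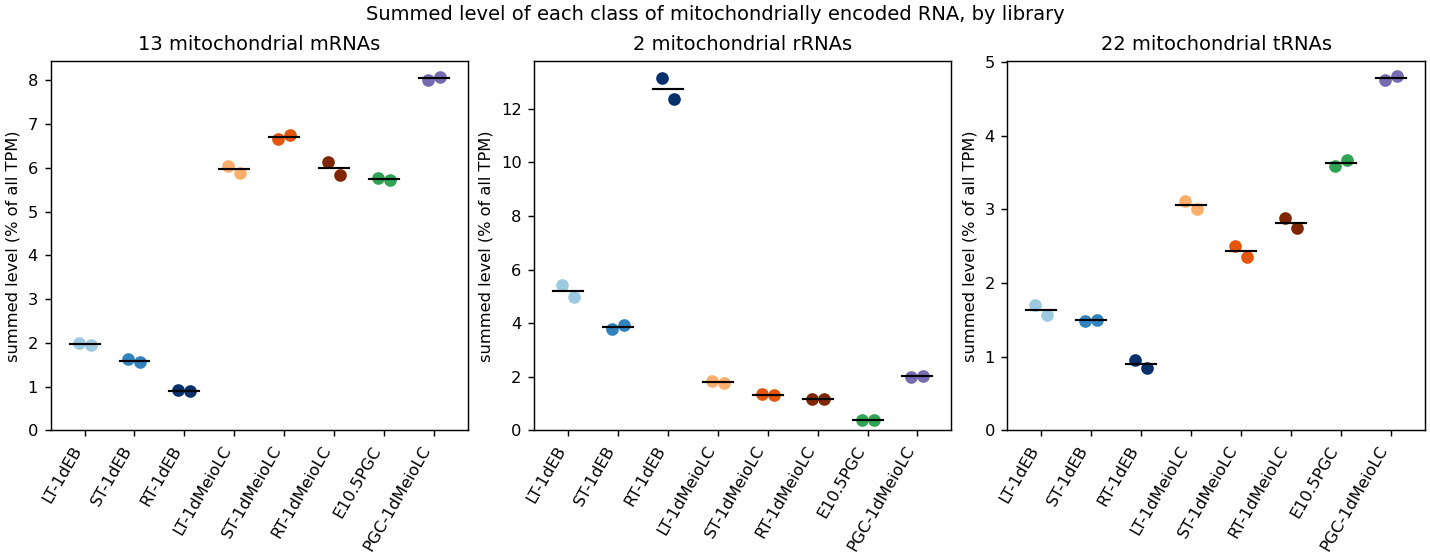
Summed level of the 13 mRNAs, the 2 rRNAs and the 22 tRNAs as a percent of all TPM, with a point per library and a bar at the mean of each of the 8 groups (2 libraries each, linear axes from 0). The mRNAs are low and the rRNAs high in the 1dEB groups, most of all in RT-1dEB, where the rRNAs reach 12.4% and 13.1%.

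Since rRNA takes a share that differs between libraries, every difference below was fitted on the deposited TPM and again after scaling each library so that its nuclear protein-coding genes had the same total. Those genes held 28.1% of TPM in RT-1dEB and 38.7% to 61.1% in the means of the other groups. Tests are limma's moderated tests on log2(TPM + 1) with Benjamini-Hochberg adjustment over 21935 genes, and a gene counts as changed at an adjusted p under 0.05. On that scale fold changes of low genes are understated.

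Between the stages, mt-Cytb rose more than any other high mRNA in LT, ST and RT cells. In LT cells its 1dEB libraries had 3471 and 3322 TPM and its 1dMeioLC libraries 27752 and 27174 TPM, a log2 fold change of 3.02 (SE 0.034, adjusted p = 1.4e-12). The ST libraries went from 2611 and 2573 TPM to 34064 and 34877 TPM and the RT libraries from 1385 and 1416 TPM to 30283 and 28814 TPM. Those log2 fold changes were 3.73 (SE 0.034, adjusted p = 4.6e-13) and 4.40 (SE 0.034, adjusted p = 1.6e-13) by limma, and after rescaling the 3 values were 2.37, 3.38 and 3.29. The gene's share of the 13 mRNAs, which no scaling between libraries changes, was 15.4% to 17.2% in the means of the 1dEB groups and 45.9% to 51.5% in those of the other 5 groups, E10.5PGC included. mt-Co1, the catalytic core of complex IV, also rose in LT cells, by 1.76 on the log2 scale as deposited and 1.11 when rescaled.

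All 7 mRNAs not wholly within the stretch, which holds parts of mt-Nd4 and mt-Co1, rose between stages in each genotype on the deposited scale. Over all 13 mRNAs, 8 rose and 2 fell in LT cells, where 40.4% of all genes were called higher and 24% lower. The ST cells had 10 that rose and 1 that fell (33.3% and 29.6% of all genes), and in RT cells likewise 10 and 1 (43.7% and 22%). After rescaling, LT cells had 4 higher and 4 lower (27.4% and 37.4% of all genes), ST cells again 10 and 1 (25.6% and 37.6%), and RT cells 7 and 3 (23.4% and 45.3%). The median over all genes tested moved from 0.19 to -0.14 in LT, from 0.00 to -0.17 in ST and from 0.30 to -0.38 in RT cells with that change of scale. Some directions were set by it. The complex I subunit mt-Nd4 was called higher in LT cells at 0.51 on the deposited scale and lower at -0.13 on the other. The count of mRNAs that fell in LT cells was 1 without LT-1dEB replicate 1 and 1 without LT-1dMeioLC replicate 1, and that in RT cells was 2 without either E10.5PGC library. The 4 epiblast markers summed to 85.7 to 255 TPM in the 1dEB libraries and 4.00 to 9.28 TPM elsewhere, and the 7 gonadal somatic markers to 133 to 220 TPM in the 1dMeioLC groups and 10.7 to 36.5 TPM elsewhere. The part of this change in cells was not tested.

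mt-Nd3, a small complex I subunit, went the other way. It was at 239 and 208 TPM in LT-1dEB, 169 and 144 TPM in ST-1dEB and 104 and 108 TPM in RT-1dEB, against 16.9 and 15.9, 16.4 and 23.6 and 39.7 and 45.9 TPM at 1dMeioLC and 9.95 and 11.8 TPM in E10.5PGC. Every 1dEB library was thus above every other library. Between the stages it fell in LT cells by limma, with a log2 fold change of -3.69 (SE 0.16, adjusted p = 7.9e-09). The values were -2.92 in ST and -1.29 in RT cells. Its copy Gm28438, which differs at the 1 base shown above, had the reverse pattern. The copy was at 51.96 and 67.2 TPM in LT-1dEB and 31.2 and 22.5 TPM in RT-1dEB but at 207 and 208 TPM in LT-1dMeioLC and 279 and 273 TPM in E10.5PGC. With the TPM of gene and copy added together, the log2 fold change between stages was -0.34 in LT, -0.97 in ST and 0.64 in RT cells, where the direction turned (adjusted p = 0.0041, 2e-06 and 4.5e-05). This sum was tried after the values had been seen, and how the reads of the 2 loci were divided was not tested.

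**Figure D3:**
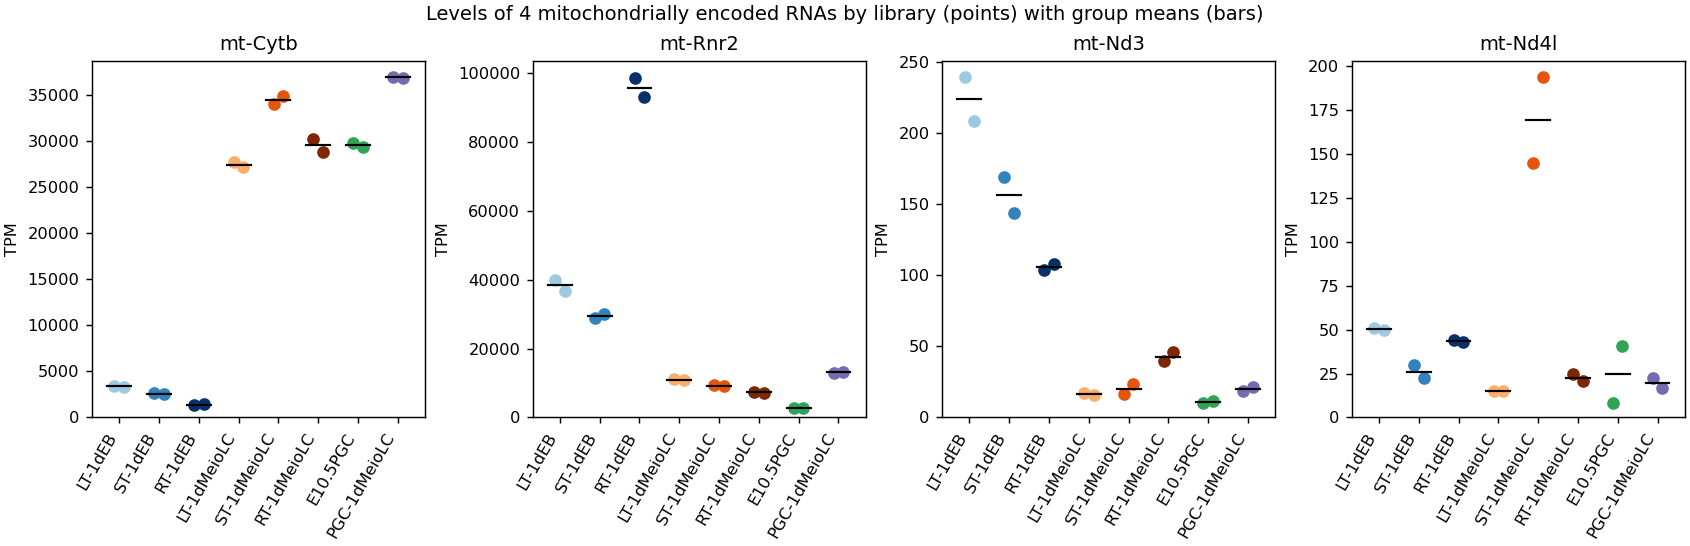
TPM of mt-Cytb, mt-Rnr2, mt-Nd3 and mt-Nd4l by library (points) with a bar at the mean of each of the 8 groups, each panel on its own linear axis from 0. mt-Cytb is low and mt-Rnr2 and mt-Nd3 are high in the 1dEB groups, and mt-Nd4l stands out in the 2 ST-1dMeioLC libraries at 145 and 194 TPM.

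In PGCs taken from the embryo, a day of culture went with higher levels of the same 7 high mRNAs. Of the 13 mRNAs 8 rose and none fell by limma, also at an unadjusted p under 0.05, where 34.7% of all genes were called higher and 18.9% lower. The exception to the count of 0 came with 1 left-out library: 1 mRNA was called lower without E10.5PGC replicate 1 and, in other fits, without either LT-1dEB library. None of the 13 was called lower on the scale with equal nuclear protein-coding totals, where again 8 rose (38.3% of all genes were called higher and 14.9% lower). With median-ratio size factors, which put the typical gene at no change, 6 rose, but the share of all genes called on that scale was not computed. The complex I subunit mt-Nd2 rose from 3285 and 3428 TPM in E10.5PGC to 7168 and 7119 TPM in PGC-1dMeioLC, with no overlap, a log2 fold change of 1.09 (SE 0.036, adjusted p = 3.6e-09). mt-Cytb rose from 29787 and 29388 TPM to 36925 and 36918 TPM and was the gene with the highest TPM of the whole table in all 4 of these libraries. Its log2 fold change was 0.32 (SE 0.034, adjusted p = 1.6e-05), but 0.0033 (adjusted p = 1) with median-ratio size factors, under which mt-Nd6 was not called either. The blood and endothelium markers summed to 813 to 821 TPM in E10.5PGC and to 493 to 514 TPM in PGC-1dMeioLC, and the fibroblast markers to 6.79 to 6.85 TPM (2 of 6 at 1 TPM) and 322 to 341 TPM (6 of 6). The part of these other cells in the differences was not tested.

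Against the cultured PGCs, LT cells at the same stage had lower levels of several complex I mRNAs. Of the 13 mRNAs 6 were lower and 1 higher (8.25% and 13.4% of all genes were called lower and higher). The 6 were mt-Nd1, mt-Nd2, mt-Nd4, mt-Nd6, mt-Cytb and mt-Co2. The PGC-1dMeioLC libraries had 5483 and 5629 TPM of mt-Nd4 and the LT-1dMeioLC libraries 3106 and 3052 TPM, a log2 fold change of -0.85 (SE 0.039, adjusted p = 4.1e-07). For mt-Nd6, the 1 mRNA encoded on the other strand, levels were 6749.8 and 6915 TPM and 3765 and 3630.5 TPM. The 1 mRNA called higher was mt-Co1, at 8072 and 8333 TPM in PGC-1dMeioLC and 10176 and 9926 TPM in LT-1dMeioLC. Its partial copy Gm29216, at 299 to 2098 TPM over all libraries, was not added to it in any fit. The 7 copies together took 0.353% and 0.445% of TPM in PGC-1dMeioLC and 0.206% and 0.145% in LT-1dMeioLC, and their part was not tested. The mt-Co1 call was lost without PGC-1dMeioLC replicate 1. It was also lost with equal nuclear protein-coding totals, at a log2 fold change of 0.13, where 7 mRNAs were lower and none higher by limma (1 higher at an unadjusted p under 0.05), beside 14.2% and 8.37% of all genes.

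The comparison of ST with LT cells addresses the study's question about telomere shortening. At 1dEB most mitochondrial mRNAs were lower in ST than in LT cells. Of the 13, 10 fell and none rose by limma (none rose at an unadjusted p under 0.05 either), where 11.6% of all genes were called lower and 26.7% higher. The counts were the same with equal nuclear protein-coding totals, where 19.3% of all genes were called lower and 22.2% higher. The log2 fold changes of the 13 reached down to -1.63, for mt-Atp8, and their median was -0.39, against 0.099 over all genes tested. The LT-1dEB libraries were far apart for mt-Atp8, at 0.187% and 0.917% of the summed mRNA TPM, against 0.213% and 0.123% in ST-1dEB. All 7 mRNAs not wholly within the copied stretch fell. mt-Cytb had 3471 and 3322 TPM in LT-1dEB and 2611 and 2573 TPM in ST-1dEB, a log2 fold change of -0.39 (SE 0.034, adjusted p = 6.4e-06). mt-Nd4 went from 2241 and 2073 TPM to 1720.1 and 1675 TPM and mt-Nd1 from 4728 and 4408 TPM to 3907 and 3851 TPM, so the libraries of the 2 genotypes did not overlap for these genes. mt-Atp6, a subunit of the proton channel of ATP synthase, was at 287 and 139 TPM in LT-1dEB, where the libraries were far apart, and at 82.5 and 81.2 TPM in ST-1dEB. The count of 10 became 6 without ST-1dEB replicate 2 and 6 without LT-1dEB replicate 1, and mt-Nd2 and mt-Nd3 were among the calls lost in both of those fits. The fibroblast markers differed between the same groups, at 265 to 276 TPM in ST against 11.5 to 11.9 TPM in LT, and their part was not tested.

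RT cells at 1dEB had lower levels of 6 of the 7 high mRNAs than either other genotype as deposited, all but mt-Nd5, which was lower than in LT cells alone. Against ST, 8 of the 13 fell and 1 rose, where 44.6% of all genes were called lower and 5.14% higher. With equal nuclear protein-coding totals 4 fell and 2 rose (17.6% and 19.5% of all genes), and the median over all genes moved from -0.38 to 0.039. mt-Nd1 was at 1938 and 1901 TPM in RT-1dEB and at 3907 and 3851 TPM in ST-1dEB, a log2 fold change of -1.01 (SE 0.035, adjusted p = 2.1e-08), or -0.36 when rescaled. mt-Nd4 and mt-Cytb kept their lower calls on both scales too. The gene that rose was mt-Atp6, at 352 and 190.5 TPM in RT-1dEB. Its log2 fold change of 1.65 (SE 0.31, adjusted p = 0.0012) became 0.36 (adjusted p = 0.25) with the TPM of its identical copy Gm10925 added. A second mRNA was called higher without RT-1dEB replicate 2 and without either E10.5PGC library. Against LT, 11 fell and none rose by limma as deposited, also at an unadjusted p under 0.05 (30.9% of all genes lower, 10.7% higher). When rescaled, 8 fell and none rose, with 1 higher at an unadjusted p under 0.05 (14.8% and 24.2% of all genes). 1 mRNA was called higher without LT-1dEB replicate 1. The mt-Nd4 log2 fold change against LT was -1.40, or -0.94 rescaled, while that of mt-Nd5 turned from -0.36 to 0.10. These comparisons share their ST or LT libraries, so their values are not independent of those of ST against LT.

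At 1dMeioLC 3 of the 7 high mRNAs were called higher and 1 lower in ST than in LT cells, and 3 were not called. Of the 13, 4 were higher and 1 lower in ST than in LT cells, on both scales (17.4% of all genes were called higher and 17.7% lower as deposited, 20.4% and 13.6% when rescaled). mt-Cytb was at 27752 and 27174 TPM in LT and 34064 and 34877 TPM in ST cells, a log2 fold change of 0.33 (SE 0.034, adjusted p = 6.4e-05). mt-Nd6 rose by 0.36 and mt-Nd4 by 0.22, and mt-Nd2 fell by 0.34. mt-Nd4l, a small complex I subunit, stood apart: its ST-1dMeioLC libraries had 145 and 194 TPM, and the other 14 libraries 8.52 to 51.2 TPM. LT-1dMeioLC had 15.1 and 15.4 TPM, which gives a log2 fold change of 3.38 (SE 0.50, adjusted p = 0.00062). Its copy Gm10222 did not show this, with 19.4 and 20.96 TPM in ST and 27.9 and 25.5 TPM in LT cells, and with gene and copy added the log2 fold change was 2.14 (adjusted p = 0.0019). In that fit 2 mRNAs were called lower. The PGC markers were lower in ST-1dMeioLC than in any other 1dMeioLC group, at 97.9 to 100.4 TPM, and the blood and endothelium markers higher, at 1501 to 1504 TPM (4 of 6 at 1 TPM, with Cdh5 listed at 0) against 493 to 1206 TPM. The gonadal somatic markers were at 211 to 220 TPM (7 of 7 at 1 TPM) against 133 to 158 TPM, and the chromosome 17 rRNA-like genes took 7.14% and 7.07% of TPM against 1.38% and 1.37% in LT-1dMeioLC and 0.922% and 1.01% in RT-1dMeioLC. Their part was not tested.

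RT cells at 1dMeioLC were lower than ST cells for 5 of the 13 mRNAs and higher for 1, again on both scales (20.2% and 13.1% of all genes were called lower and higher as deposited, 24.5% and 10.1% when rescaled). The 5 were mt-Nd4l, mt-Nd4, mt-Nd5, mt-Nd6 and mt-Cytb, and the 1 was mt-Nd3. mt-Nd4l was at 24.6 and 20.9 TPM, with a log2 fold change of -2.83 (SE 0.50, adjusted p = 0.0018). For mt-Nd5 the ST libraries had 1733 and 1743 TPM and the RT libraries 1323 and 1249 TPM. The count of higher mRNAs was 3 without either RT-1dEB library and 2 without either LT-1dEB library. Against LT cells, RT cells had 1 mRNA higher (mt-Nd3, at 1.33 on the log2 scale) and 3 lower (mt-Nd2, mt-Nd4 and mt-Nd5), where 6.2% and 12.4% of all genes were called. When rescaled 1 was higher and 2 lower (5.7% and 11.2% of all genes). With gene and copy added, the mt-Nd3 value was -0.11 (adjusted p = 0.38). The count of 3 fell to 1 without either LT-1dMeioLC library or without RT-1dMeioLC replicate 2, mt-Nd4 losing its call in each of those fits. The higher count was 3 without either RT-1dEB library and 2 without RT-1dMeioLC replicate 2.

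Whether the difference between genotypes itself changed from 1dEB to 1dMeioLC was tested within the same fit. The ST minus LT difference was greater at 1dMeioLC for 8 of the 13 mRNAs and less for 1, beside 12.2% and 26.4% of all genes, and with equal nuclear protein-coding totals greater for 9 and less for none by limma, also at an unadjusted p under 0.05 (19.6% and 19.2% of all genes). For mt-Cytb that change was 0.72 (SE 0.048, adjusted p = 1.9e-06), or 1.01 when rescaled. The RT minus ST difference was greater at 1dMeioLC for 6 and less for 2 (34.6% and 7.65% of all genes), but greater for 2 and less for 4 when rescaled (12.9% and 23.1%). The 2 sets of values share the ST libraries.

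**Figure D4:**
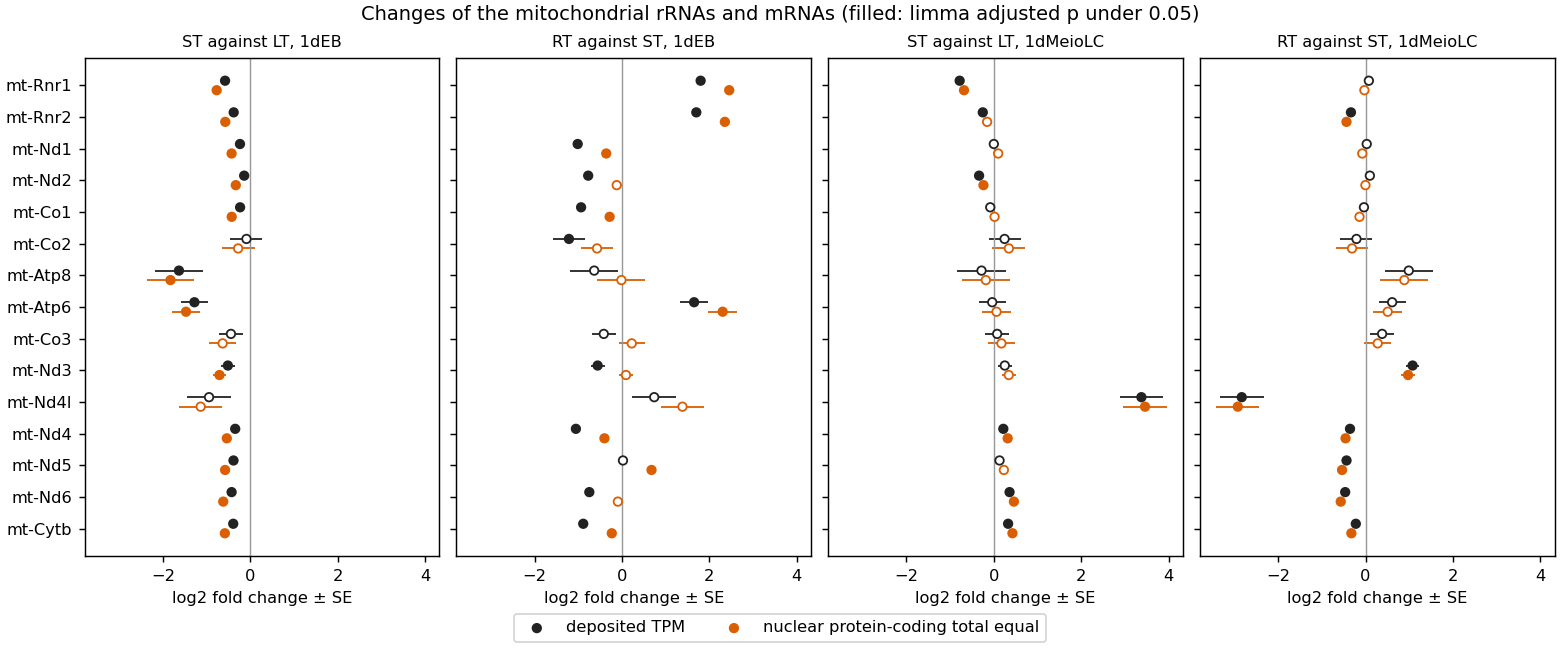
Log2 fold changes (points) with limma's standard errors (bars) of the 2 rRNAs and 13 mRNAs for ST against LT and RT against ST cells at each stage, as deposited (black) and after rescaling to equal nuclear protein-coding totals (orange). Filled points have an adjusted p under 0.05. Most mRNAs lie to the left of 0 at 1dEB, and at 1dMeioLC mt-Nd4l lies furthest out, at 3.38 and -2.83 as deposited.

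Both mitochondrial rRNAs differed between the genotypes at 1dEB. mt-Rnr2 was at 39976 and 36663 TPM in LT-1dEB, 28860.2 and 30026 TPM in ST-1dEB and 98564 and 92824 TPM in RT-1dEB, and mt-Rnr1 at 14148 and 13129.5, 8961 and 9321 and 32830 and 30823 TPM. The libraries of the 3 genotypes did not overlap for either gene. In ST against LT cells the log2 fold changes were -0.58 (SE 0.046, adjusted p = 3.3e-06) for mt-Rnr1 and -0.38 (SE 0.046, adjusted p = 7.6e-05) for mt-Rnr2. In RT against ST cells they were 1.80 and 1.70 as deposited, and 2.45 and 2.35 when rescaled. At 1dMeioLC mt-Rnr1 was lower in ST than in LT cells, with a log2 fold change of -0.78, while the lower call of mt-Rnr2, at -0.25, was lost when rescaled (-0.15, adjusted p = 0.071). RT cells at 1dMeioLC had less of both than LT cells, at -0.71 and -0.59, and less mt-Rnr2 than ST cells.

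From 1dEB to 1dMeioLC both rRNAs fell in all 3 genotypes on both scales. The log2 fold change of mt-Rnr2 was -1.80 in LT, -1.67 in ST and -3.71 in RT cells as deposited. In PGCs they rose with culture. mt-Rnr2 went from 2632 and 2671 TPM in E10.5PGC to 12939 and 13303 TPM in PGC-1dMeioLC and mt-Rnr1 from 1310 and 1373 TPM to 7024 and 7135 TPM, with log2 fold changes of 2.31 (SE 0.046, adjusted p = 2e-10) and 2.40 (SE 0.046, adjusted p = 1.5e-10) by limma. The nuclear rRNA-like genes took 0.656% and 0.72% of TPM in E10.5PGC and 4.02% and 3.81% in PGC-1dMeioLC, and their part was not tested. The ratio of mt-Rnr2 to mt-Rnr1 TPM was 2.81 to 3.22 in the means of the 1dEB groups and 1.54 to 2.23 in those of the others.

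The tRNA genes are 59 to 75 bases long, and TPM divides by that length, so levels are least certain for them. Whether these reads came from mature tRNAs or from RNA not yet cut was not tested. The 5 within the copied stretch were at 0 to 1734 TPM and the other 17 at 16.9 to 10920 TPM. The 1 value of 0 was mt-Tk in ST-1dEB replicate 2. The highest on average was mt-Te, the tRNA for glutamate, which lies between mt-Nd6 and mt-Cytb (chromosome M, 14071 to 14139, minus strand) and is shown whole as the most abundant member of its class.
mt-Te: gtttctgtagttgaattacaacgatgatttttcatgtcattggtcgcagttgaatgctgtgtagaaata
It had 10918 and 10919.7 TPM in PGC-1dMeioLC, 8292 and 8977 TPM in E10.5PGC, 6309 and 5789 TPM in ST-1dMeioLC and 4955 and 5156 TPM in LT-1dMeioLC. The 1dEB libraries were lower, with 3351 and 3447 TPM in ST, 3159.8 and 2958 TPM in LT and 1322 and 1109 TPM in RT cells. The log2 fold change of mt-Te in RT against ST cells at 1dEB was -1.49 (SE 0.076, adjusted p = 1.4e-07), and -0.83 when rescaled.

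**Figure D5:**
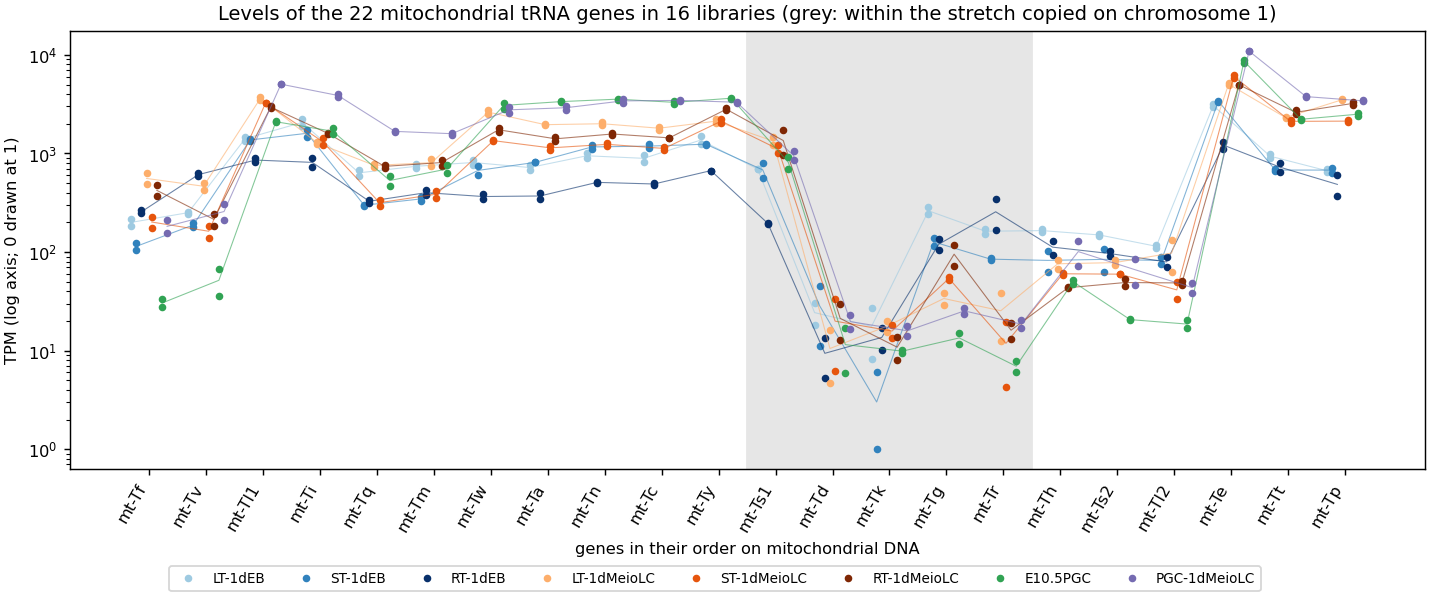
TPM (log axis) of the 22 mitochondrial tRNA genes in their order on mitochondrial DNA, with a point for each of 16 libraries and lines through the means of the 8 groups. mt-Te is the highest on average, the genes on grey lie within the stretch copied on chromosome 1, and the 1 value of 0 (mt-Tk, ST-1dEB) is drawn at 1.

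The next highest means were those of mt-Tl1, mt-Ty, mt-Tp, mt-Tt and mt-Tn, at 2579, 2162, 2078, 1924 and 1802 TPM over the 16 libraries. mt-Tp, the tRNA for proline, rose between stages from 643 and 693 TPM to 3574 and 3467 TPM in LT cells, a log2 fold change of 2.40 (SE 0.17, adjusted p = 4.3e-07). It rose in ST and RT cells as well, by 1.65 and 2.77. Of the 22, 12 rose and 5 fell between stages in LT, 10 and 3 in ST and 14 and 4 in RT cells. Beside these, 33.3% to 43.7% of all genes were called higher and 22% to 29.6% lower. When rescaled 8 rose and 8 fell in LT, 7 and 9 in ST and 10 and 6 in RT cells. The shares of all genes were then 23.4% to 27.4% and 37.4% to 45.3%. mt-Tl1, a tRNA for leucine that directly follows mt-Rnr2, rose in cultured PGCs from 2079.9 and 2120.3 TPM to 5078 and 5017 TPM, with a log2 fold change of 1.26 (SE 0.056, adjusted p = 2.5e-08). Over all 22, culture of PGCs went with 13 higher and none lower by limma, with 1 lower at an unadjusted p under 0.05, beside 34.7% and 18.9% of all genes (14 and none when rescaled, beside 38.3% and 14.9%). In ST against LT cells 9 fell and 2 rose at 1dEB, beside 11.6% and 26.7% of all genes (12 and none by limma when rescaled, with 1 higher at an unadjusted p under 0.05, beside 19.3% and 22.2%). At 1dMeioLC 11 fell and 2 rose, beside 17.7% and 17.4% of all genes (10 and 2 when rescaled, beside 13.6% and 20.4%). mt-Tn, the tRNA for asparagine, was among those that fell at 1dMeioLC, from 2075 and 1932 TPM in LT to 1282 and 1195 TPM in ST cells. In RT against ST cells 10 of the 22 fell and 3 rose at 1dEB, a share of lower calls close to the 44.6% of all genes (5.14% were higher). When rescaled 5 fell and 9 rose, beside 17.6% and 19.5% of all genes. At 1dMeioLC 11 rose and 1 fell in the same contrast, beside 13.1% and 20.2% of all genes (6 and 2 when rescaled, beside 10.1% and 24.5%).

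The nuclear genes that serve mitochondrial DNA and RNA were taken from lists of textbook members. All 16 genes of mitochondrial transcription and mtDNA maintenance, 26 of RNA processing, 7 regulators of mitochondrial biogenesis and 26 nuclear subunits of complexes I, III, IV and ATP synthase were measured above the filter. In ST against LT cells at 1dEB the transcription and maintenance list had 6 lower and 2 higher beside 11.6% and 26.7% of all genes (9 and 1 when rescaled, beside 19.3% and 22.2%). Ssbp1, the single-stranded DNA binding protein of mtDNA replication, was at 20.5 and 21.02 TPM in LT and 7.66 and 8.11 TPM in ST cells, a log2 fold change of -1.29 (SE 0.064, adjusted p = 1e-07). Tfam, which packages mtDNA and starts its transcription, was at 18.97 and 17.7 TPM in LT and 14.6 and 13.8 TPM in ST cells (-0.35 on the log2 scale). Lrpprc fell too, by 0.39, a call lost without LT-1dEB replicate 2. Polrmt had 6.45 and 6.56 TPM and 8.06 and 8.02 TPM and was not called (adjusted p = 0.19 by limma). Top1mt, the mitochondrial topoisomerase, rose by 0.92. Of the 26 nuclear subunits 6 rose and 5 fell, but 2 rose and 15 fell when rescaled, beside the same shares of all genes. In RT cells at 1dEB all 26 fell as deposited against both ST and LT, beside 44.6% and 30.9% of all genes called lower. When rescaled 6 rose and 6 fell against ST, beside 19.5% and 17.6% of all genes. Against LT 4 rose and 13 fell when rescaled, beside 24.2% and 14.8%.

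At 1dMeioLC Ssbp1 was again lower in ST than in LT cells, at 32.9 and 32.2 TPM against 66.3 and 66.5 TPM, and Top1mt again higher, at 6.67 and 5.89 TPM against 2.14 and 1.91 TPM. Trmu, which modifies mitochondrial tRNAs, was at 3.21 and 2.81 TPM in ST and 1.09 and 0.656 TPM in LT cells, a log2 fold change of 1.11 (SE 0.18, adjusted p = 0.0011). Of the 26 nuclear subunits 2 rose and 11 fell, beside 17.4% and 17.7% of all genes (7 and 8 when rescaled, beside 20.4% and 13.6%), the most Cox7c of complex IV, at -0.92. In RT against ST cells at 1dMeioLC 14 of the 26 rose and 2 fell, beside 13.1% and 20.2% of all genes (12 and 5 when rescaled, beside 10.1% and 24.5%). Among them were 7 of 7 complex IV subunits that rose (6 of 7 when rescaled). Top1mt was 2.55 and 1.88 TPM in RT cells, a log2 fold change of -1.18 against ST, and Ssbp1 rose by 0.60. Ppargc1a, a coactivator of mitochondrial biogenesis genes, was at 4.67 and 3.43 TPM in ST and 1.27 and 0.808 TPM in RT cells.

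In cultured PGCs most of the listed nuclear subunits fell. Of the 26 nuclear subunits 17 fell and 4 rose, beside 18.9% and 34.7% of all genes, with a median log2 fold change of -0.36 against 0.13 over all genes tested. When rescaled 14 fell and 5 rose, with a median of -0.19, beside 14.9% and 38.3% of all genes. Uqcrc1, a core protein of complex III, went from 178 and 172 TPM to 78.9 and 73.1 TPM, while mt-Cytb of the same complex rose. The RNA processing list of 26 genes had 15 lower and 4 higher (14 and 4 when rescaled), beside the same shares of all genes. Tbrg4, a protein that binds mitochondrial RNA, fell from 53.1 and 54.7 TPM to 14.4 and 15.4 TPM, a log2 fold change of -1.79 (SE 0.079, adjusted p = 2.5e-08), and Lrpprc from 27.1 and 24.97 TPM to 16.9 and 14.3 TPM. Polrmt fell by 0.60, a call lost without PGC-1dMeioLC replicate 1. Nsun4, which modifies the small rRNA, rose from 1.69 and 1.75 TPM to 5.14 and 4.78 TPM. Tfam stood at 22.7 and 24.1 TPM and 26.6 and 25.5 TPM and was not called as deposited, was called higher at 0.31 when rescaled, and turned to -0.16, not called, with median-ratio size factors.

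Between the stages the nuclear subunits mostly rose, with 19 of 26 higher and 6 lower in LT, 20 and 5 in ST and 23 and 1 in RT cells as deposited, beside 33.3% to 43.7% of all genes called higher and 22% to 29.6% lower. When rescaled the counts were 15 and 9, 18 and 8, and 15 and 8, beside 23.4% to 27.4% and 37.4% to 45.3% of all genes. The complex I subunit Ndufb8 went from 89.99 and 96.8 TPM to 651 and 662 TPM in LT cells, a log2 fold change of 2.80 (SE 0.04, adjusted p = 3.6e-12), with 2.80 in ST and 3.4 in RT cells. As deposited, the transcription list had 9 higher and 3 lower in LT, 8 and 3 in ST and 12 and 2 in RT cells. In the same order, RNA processing had 7 and 11, 10 and 11, and 15 and 6. Biogenesis regulators had 4 and 3, 3 and 3, and 4 and 2. When rescaled transcription had 6 and 6, 7 and 5, and 7 and 4. RNA processing then had 5 and 18, 7 and 12, and 7 and 15. Biogenesis regulators had 2 and 3, 3 and 3, and 2 and 3. These stand beside the same shares of all genes. Polrmt fell in LT and ST cells, at -0.89 and -0.93 as deposited. In RT cells it was not called at -0.28 as deposited (adjusted p = 0.12 by limma) but was called at -1.23 when rescaled. Pprc1, another coactivator of the biogenesis genes, had a log2 fold change of -1.40 in LT cells. Tfam rose in RT cells, from 8.38 and 7.49 TPM to 25.4 and 25.3 TPM, by 1.56 as deposited and 0.53 when rescaled. In ST cells it rose by 0.68 and 0.35. In LT cells Tfam was called higher at 0.31 as deposited but lower at -0.31 when rescaled.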

How the data were processed

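RNA-seq was analysed in 16 libraries of 8 groups. Library kits were NEBNext Ultra, per the labels' protocols. Per the submitters' processing notes, the tools were Bowtie2, HISAT2, RSEM, DESeq2 and R 3.4.2 with mm10, with no role or order given. The authors deposited 1 table of TPM, in which each column sums to 1000000, so sequencing depth is unknown and no counting interval can be given. Of its columns, 12 carry 6 names used 2 times each, so they could not be tied to a sample and were not used.

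Members and lists were chosen with earlier results of these data known. The named genes were all mRNAs and rRNAs, the 6 tRNAs with the highest mean, Polrmt, Tfam and Lrpprc, and in each comparison up to 3 listed nuclear genes with the largest called change in each direction. Genes at 1 TPM or more in at least 2 libraries (21935) were tested with limma 3.58.1 in R 4.3.3 on log2(TPM + 1), with 1 mean per group, a trended prior (8 residual and 2.23 prior degrees of freedom) and Benjamini-Hochberg adjustment, in 13 comparisons. The script was tested on simulated data. Sequences and positions come from GENCODE M21, and copies were searched with BLAST+ 2.17.0. Alternatives were another pseudocount (0.1), no filter (40182 genes), equal totals of 21777 nuclear protein-coding genes and median-ratio size factors. Others were a replicate block, each library left out and, chosen after seeing the data, chromosome 1 copies added to mt-Co2, mt-Atp6, mt-Co3, mt-Nd3 and mt-Nd4l. The copies of parts of mt-Co1 and mt-Nd4 were not added in any fit.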

Additional observations from a re-analysis of the deposited data

Results flagged for a closer look

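For 20 of the genes and comparisons the difference between genotypes differed between the stages by the test of that difference itself (limma, adjusted by Benjamini-Hochberg over all genes tested). The values are the difference at 1dMeioLC minus that at 1dEB on the log2 scale, and both sets below use the ST libraries. For ST minus LT, the change was 0.24 (adjusted p = 0.0036) for mt-Nd1, 0.56 (adjusted p = 2.9e-05) for mt-Nd4, 0.52 (adjusted p = 0.0027) for mt-Nd5, 0.79 (adjusted p = 0.00033) for mt-Nd6 and 0.72 (adjusted p = 1.9e-06) for mt-Cytb. It was 4.32 (adjusted p = 0.00084) for mt-Nd4l, 0.76 (adjusted p = 0.021) for mt-Nd3 and 1.24 (adjusted p = 0.047) for mt-Atp6, all within the copied stretch; with the chromosome 1 copies added the mt-Nd3 value turned to -0.63 and that of mt-Atp6 was 0.82, not called (adjusted p = 0.083 by limma). Negative values were found for mt-Nd2, at -0.20 (adjusted p = 0.012), and mt-Rnr1, at -0.20 (adjusted p = 0.029). With equal nuclear protein-coding totals they were 0.094 and 0.087 and lost their calls (adjusted p = 0.32 and 0.45 by limma). For RT minus ST, the change was 1.04 (adjusted p = 2.6e-07) for mt-Nd1, 0.87 (adjusted p = 8.6e-07) for mt-Nd2, 0.90 (adjusted p = 2.2e-05) for mt-Co1, 0.70 (adjusted p = 5.3e-06) for mt-Nd4 and 0.66 (adjusted p = 2.9e-06) for mt-Cytb. It was 1.63 (adjusted p = 0.00021) for mt-Nd3, -3.57 (adjusted p = 0.0024) for mt-Nd4l and -0.46 (adjusted p = 0.0048) for mt-Nd5, and -1.72 (adjusted p = 7.7e-08) for mt-Rnr1 and -2.03 (adjusted p = 4.1e-08) for mt-Rnr2. With equal nuclear protein-coding totals the values of mt-Nd4 and mt-Cytb were -0.055 and -0.09 and lost their calls (adjusted p = 0.53 and 0.19 by limma). Those of mt-Nd2 and mt-Co1 were 0.12 and 0.14 and lost their calls too (adjusted p = 0.21 and 0.19 by limma), and that of mt-Nd1 was 0.29.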

How the results depend on the processing

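Counts of mRNAs called moved most with the scale. Shares of all genes called were computed only for deposited TPM and equal nuclear protein-coding totals. The counts from other settings have no such share beside them. With equal totals of nuclear protein-coding genes, RT against ST at 1dEB had 2 higher and 4 lower, LT against cultured PGCs 0 higher, the stage comparison 4 higher and 4 lower in LT and 3 lower in RT cells, ST minus LT 0 lower, and RT minus ST 2 higher and 4 lower. With median-ratio size factors RT against ST had 2 higher and 4 lower at 1dEB and 3 higher at 1dMeioLC, RT against LT at 1dMeioLC 3 higher and 0 lower, the stage comparison 5 higher in LT and 2 lower in RT cells, and ST minus LT 0 lower. With the copies added, but none to mt-Co1 or mt-Nd4, RT against ST at 1dEB had 0 higher and ST against LT at 1dMeioLC 2 lower. RT against LT at 1dMeioLC then had 0 higher, the RT stage comparison 0 lower and ST minus LT 2 lower. Directions turned, with equal protein-coding totals, for mt-Nd5 in RT against LT at 1dEB (0.10), mt-Nd4 between stages in LT cells (-0.13), mt-Rnr1 (0.087) and mt-Nd2 (0.094) in ST minus LT, and mt-Nd4 (-0.055) and mt-Cytb (-0.090) in RT minus ST. With median-ratio size factors they turned for mt-Nd5 in RT against LT at 1dEB (0.0026), mt-Rnr1 (0.060) and mt-Nd2 (0.068) in ST minus LT and Tfam in cultured PGCs (-0.16). With the copies added mt-Nd3 turned in RT against LT at 1dMeioLC (-0.11), between stages in RT cells (0.64) and in ST minus LT (-0.63). The cause was not tested.

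Leaving out 1 library at a time, mRNAs higher and lower numbered 0 and 6 to 11 in ST against LT, 1 to 2 and 7 to 8 in RT against ST, and 0 to 1 and 9 to 11 in RT against LT at 1dEB. At 1dMeioLC they numbered 4 to 5 and 1, 1 to 3 and 5, and 1 to 3 and 1 to 3 in the same order. Culture of PGCs gave 8 to 9 and 0 to 1, and LT against cultured PGCs 0 to 1 and 5 to 7. The stage comparisons gave 7 to 8 and 1 to 2 in LT, 10 to 11 and 1 in ST and 9 to 10 and 1 to 2 in RT cells. ST minus LT gave 6 to 9 and 1, and RT minus ST 6 to 8 and 2 to 3. Over 28 pairs of groups, same-numbered deviations correlated at -0.034 to 0.043, so no pairing by the labels' replicate numbers was seen. A pairing that leaves no such mark was not excluded. A replicate block gave the same counts except 7 lower in LT against cultured PGCs and 3 lower in RT minus ST. Another pseudocount and no filter on low values kept every count within 1.5 times. Depth is unknown, and 2 libraries per group limit the precision of every value.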
